A study of Mus musculus with 6 samples.

Results

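The genes of the proteasome, the protease that degrades ubiquitin-marked proteins, were examined for acetylation of lysine 56 of histone H3 (H3K56ac) at their promoters. They were taken by name, as the protein-coding genes of GENCODE M21 whose symbols start with Psma to Psmg, which gave 50 genes among 21938 protein-coding genes of the mouse. The group held 31 constitutive subunits, 3 immunoproteasome and 2 tissue-specific subunits, 13 activators, inhibitors and assembly chaperones, and *Psmc3ip*, a meiotic recombination gene that only shares the prefix. The 50 genes were spread over 16 chromosomes.

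H3K56ac was profiled by ChIP-seq in undifferentiated V6.5 mouse embryonic stem cells (mESCs), a cell line grown here on feeder cells in medium with LIF. The cells had been infected with lentivirus for a scrambled shRNA (Scramble) or an shRNA against *Sirt6* (Sirt6KD), so that lentiviral infection and shRNA expression were shared by both groups. *Sirt6* encodes a deacetylase of this residue. Each group had 2 H3K56ac libraries and 1 input library, and the 2 were biological replicates by the study's own description. The study asked how loss of *Sirt6* alters H3K56ac. The processed data used here were 1 merged set of 11106 peak positions, which named no library, group, height or depth. Whether a proteasome gene differed between Scramble and Sirt6KD cells, or between libraries, therefore could not be examined, and the values below have no replicate error. No test was run. Intervals after a share are Wilson 95% intervals, which cover the number of genes counted and no difference between samples. Among pluripotency genes, *Pou5f1*, *Nanog*, *Klf4* and *Zfp42* had a peak centred less than 1 kb from a transcription start site (TSS), and the midpoints nearest to *Sox2* and *Esrrb* lay 2329 and 1534.5 bp from a TSS, in peaks 9909 and 5438 bp wide.

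The proteasome is built from a barrel-shaped core particle, whose beta ring carries the peptide-cutting sites, and a regulatory particle of ATPase and non-ATPase subunits that recognises, unfolds and feeds in ubiquitinated proteins. In immune cells and after interferon treatment, the catalytic subunits beta 1, beta 2 and beta 5 are replaced by the inducible subunits encoded by *Psmb9*, *Psmb10* and *Psmb8*, which changes the peptides offered to T cells. The thymus and the testis use further variants, encoded by *Psmb11* and *Psma8*. Histone acetylation at promoters, including that of H3 lysine 56 close to the DNA entry site of the nucleosome, generally accompanies active transcription.

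Constitutive and inducible catalytic subunits are compared below, so the DNA in front of 4 of these genes is shown first, as examples. *Psmb7* (beta 2) and *Psmb9* (beta 1i) are not shown, so *Psmb6* and *Psmb10* are not counterparts. Each line gives the 150 bases directly upstream of the 5′ end of the gene in GENCODE M21, read from RefSeq's GRCm38.p6 genome on the strand of the gene. *Psmb5* (beta 5) is at chr14:54618023-54618172 on the minus strand, *Psmb8* (beta 5i) at chr17:34197571-34197720 on the plus strand, *Psmb6* (beta 1) at chr11:70525217-70525366 on the plus strand and *Psmb10* (beta 2i) at chr8:105938445-105938594 on the minus strand. Capitals mark a match to TGACNNNGC, the core of the antioxidant response element, which NRF1 and NRF2 recognise.
Psmb5: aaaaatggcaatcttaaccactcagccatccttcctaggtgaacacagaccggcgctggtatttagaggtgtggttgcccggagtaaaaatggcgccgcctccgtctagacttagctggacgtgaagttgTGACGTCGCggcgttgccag
Psmb8: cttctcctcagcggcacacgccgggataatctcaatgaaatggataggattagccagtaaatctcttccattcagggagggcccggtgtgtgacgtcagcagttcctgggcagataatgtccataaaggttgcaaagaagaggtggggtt
Psmb6: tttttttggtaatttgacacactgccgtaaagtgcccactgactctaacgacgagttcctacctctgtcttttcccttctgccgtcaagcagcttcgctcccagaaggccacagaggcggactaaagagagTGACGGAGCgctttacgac
Psmb10: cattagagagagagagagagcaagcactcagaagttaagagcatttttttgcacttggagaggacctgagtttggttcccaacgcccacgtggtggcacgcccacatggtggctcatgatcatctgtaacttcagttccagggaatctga
The stretches of *Psmb5* and *Psmb6* held 11 and 9 CpG dinucleotides, and those of *Psmb8* and *Psmb10* held 5 and 3. The match to the antioxidant core began 20 bp before the 5′ end of *Psmb5* and 19 bp before that of *Psmb6*. Of the 6 motifs searched, the *Psmb8* and *Psmb10* stretches matched none. The 4 stretches do not stand for their classes. In the wider window searched further below, *Psmb7* had no match to the antioxidant core. The CpG ratio, explained below, was 0.658 at *Psmb9* and 0.782 at *Psmb7*. The *Psmb5* stretch lay inside an H3K56ac peak and the *Psmb8* stretch lay far from any, as described next.

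A promoter peak was defined as a peak whose midpoint lay within 1 kb of any TSS of the gene. It was found at 44 of the 50 genes, or 88% (76.2 to 94.4%), against 7429 of all protein-coding genes, or 33.9%. Promoters rich in CpG carried such peaks more often: 57.5% of the 10415 genes whose CpG ratio (observed over expected CpG within 500 bp of the principal TSS) reached 0.6, and 12.5% of the 11523 others. Of the proteasome genes, 41 were CpG-rich and 39 of them, or 95.1% (83.9 to 98.7%), had a promoter peak, as did 5 of the 9 CpG-poor ones. The count of proteasome genes was thus above the share of all genes, and above that of CpG-rich genes.

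**Figure D1:**
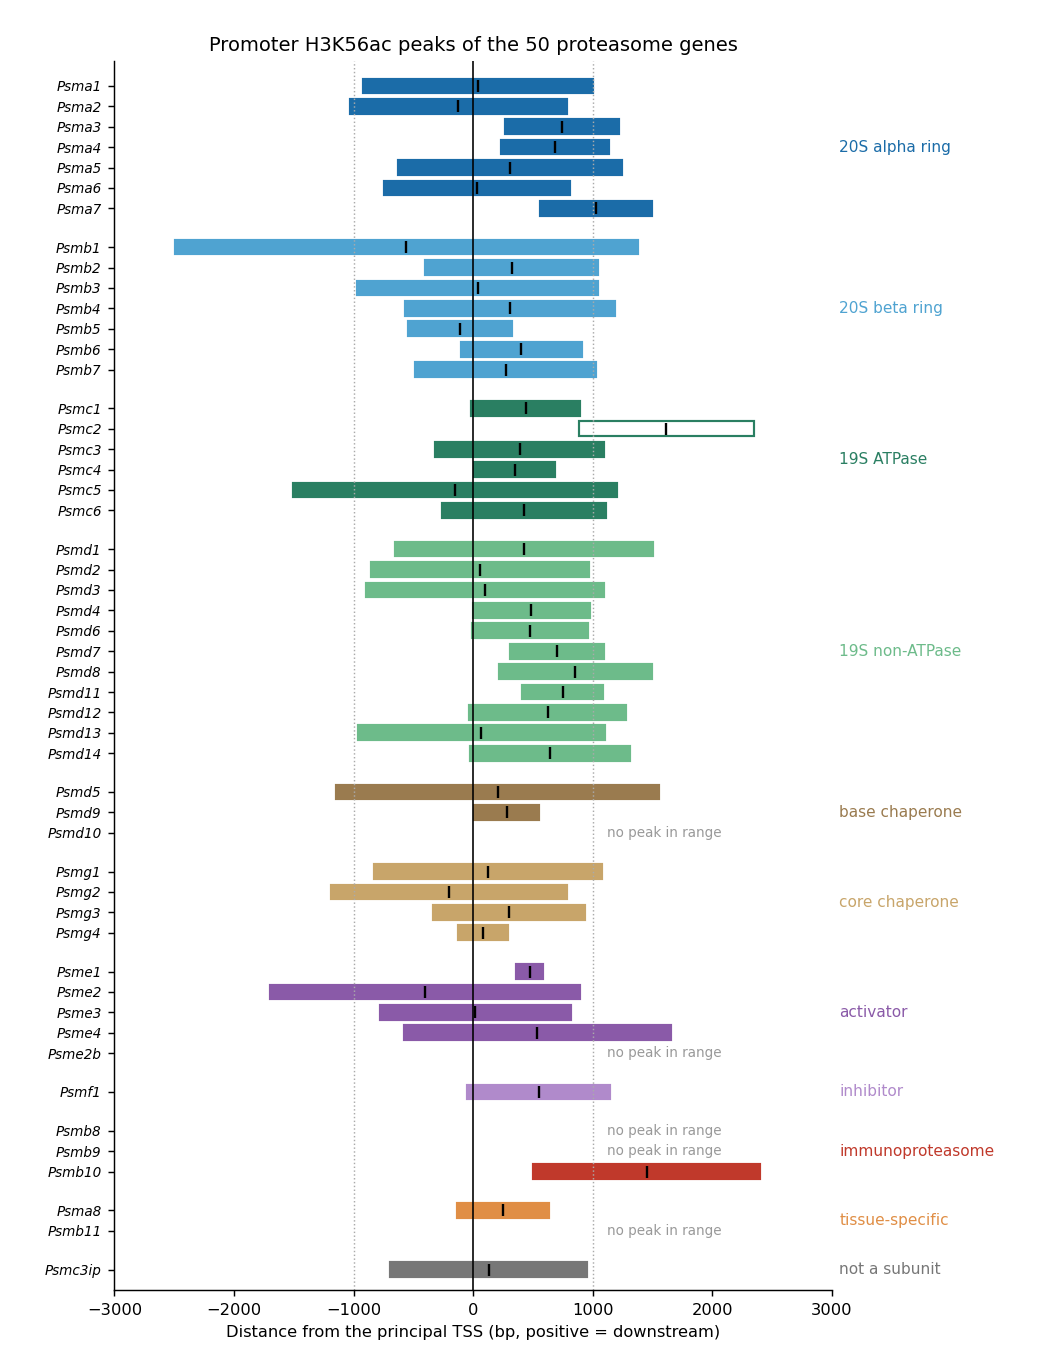
Promoter H3K56ac peaks of the 50 proteasome genes, by class. Bars span the peak relative to the principal TSS (x axis in bp, positive downstream), black ticks mark its midpoint, dotted lines mark 1000 bp on either side, and the open bar of *Psmc2* has a midpoint over 1 kb from every TSS. Most bars start near or before the TSS and reach about 1 kb into the gene, while *Psmb8*, *Psmb9*, *Psmb11*, *Psmd10* and *Psme2b* have no peak in the range shown.

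In the core particle, each of the 7 alpha ring genes (*Psma1* to *Psma7*), which form the gated outer rings, and each of the 7 constitutive beta ring genes (*Psmb1* to *Psmb7*) had a promoter peak. Widths in the alpha ring ran from 905 bp at *Psma4* to 1927 bp at *Psma1*, with a median of 1561 bp. At *Psma6* (alpha 1) a peak of 1561 bp was centred 32 bp downstream of the principal TSS. At *Psma7* (alpha 4) the midpoint of a 931-bp peak lay 978 bp from the nearest TSS, just inside the limit, and the peak began 561 bp downstream of the principal TSS. Peaks of the alpha ring thus ranged from ones that straddled the start to ones that lay wholly in the first part of the gene, as at *Psma3*, *Psma4* and *Psma7*.

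Each of the 3 constitutive catalytic subunits had a peak over its start. *Psmb5*, which cuts after hydrophobic residues, had a peak of 869 bp at chr14:54617698-54618566 that spanned 544 bp upstream to 324 bp downstream of the principal TSS. The peak of *Psmb6*, which cuts after acidic residues, was 1012 bp wide at chr11:70525281-70526292 and reached from 105 bp upstream to 906 bp downstream. At *Psmb7*, which cuts after basic residues, a 1513-bp peak at chr2:38643058-38644570 reached from 483 bp upstream to 1029 bp downstream. The 3 peaks covered the principal TSS, that of *Psmb5* mostly from upstream and the others mostly from downstream. Among the structural beta subunits, *Psmb2*, *Psmb3* and *Psmb4* had peaks of 1447, 2009 and 1758 bp. *Psmb1* (beta 6) had the widest peak of all proteasome genes, 3873 bp at chr17:15496921-15500793, which was wider than 97.6% of the 6868 promoter peaks and also covered the start of *Tbp*, the TATA-binding protein gene on the opposite strand, which begins 137 bp from the nearest *Psmb1* TSS.

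In the regulatory particle, 16 of 17 genes had a promoter peak. The non-ATPase subunits, which include the ubiquitin receptors and the deubiquitinase, had one at 11 of 11 genes (*Psmd1*, *Psmd2*, *Psmd3*, *Psmd4*, *Psmd6*, *Psmd7*, *Psmd8*, *Psmd11*, *Psmd12*, *Psmd13* and *Psmd14*), with widths from 679 bp at *Psmd11* to 2158 bp at *Psmd1*. *Psmd14*, the deubiquitinase that removes ubiquitin chains, had a peak of 1339 bp that began 23 bp upstream of the principal TSS. *Psmd4*, a ubiquitin receptor, had one of 979 bp that began 3 bp upstream. *Psmd13* starts 99 bp from *Sirt3*, a mitochondrial relative of *Sirt6* on the opposite strand, and a 2069-bp peak was centred 68 bp from its TSS, over exons of both genes. The ATPases that unfold substrates had a promoter peak at 5 of 6 genes, *Psmc1*, *Psmc3*, *Psmc4*, *Psmc5* and *Psmc6*, from 682 bp at *Psmc4* to 2714 bp at *Psmc5*.

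*Psmc2* (Rpt1) was the ATPase gene without a promoter peak, and of the 6 genes outside the limit it was the nearest to it. A peak of 1461 bp lay in its intron at chr5:21786169-21787629, with its midpoint 1616 bp and its edge 886 bp downstream of the TSS. RefSeq places a second start of *Psmc2* inside that peak, 152 bp from the midpoint. Where it sufficed that the edge of a peak came within 1 kb, 45 proteasome genes had a peak, against 35.7% of all protein-coding genes, and *Psmc2* was the gene gained. *Psmc2* thus had a peak close to its start but not centred there. Constitutive subunits together had a promoter peak at 30 of 31 genes, or 96.8% (83.8 to 99.4%). The share was 33.9% over all protein-coding genes and 57.5% over CpG-rich ones. Among the constitutive peaks, those of *Psma2* and *Psmc5* were centred in exons of *Mrpl32* and *Ftsj3*, nearer to the starts of those genes.

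The immunoproteasome and tissue-specific subunits had a promoter peak at 2 of 5 genes, or 40% (11.8 to 76.9%). That interval spans the 33.9% of all protein-coding genes, and CpG-poor genes had 12.5%. *Psmb8* and *Psmb9* lie beside the peptide transporter genes *Tap1* and *Tap2* in the major histocompatibility complex on chromosome 17. The peak nearest to both was one of 288 bp at chr17:34175561-34175848, whose midpoint lay 7844.5 bp from the nearest TSS of *Psmb9* and 22016.5 bp from that of *Psmb8*. *Tap1* starts 30 bp from *Psmb9* on the opposite strand. No peak lay in *Tap1* or *Tap2* either, and their nearest midpoints were 11848.5 and 27822.5 bp away. The 4 neighbouring genes therefore formed a stretch without a peak in this set.

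*Psmb10*, the third inducible subunit, lies outside the complex on chromosome 8 and had a peak of 1896 bp at chr8:105936045-105937940. Its midpoint was 32.5 bp from the start of a transcript within the gene, which made it a promoter peak. The peak began 504 bp downstream of the principal TSS, and its midpoint was 1451.5 bp from there and 1399.5 bp from the RefSeq start. With the principal TSS alone, 42 of the 50 genes had a promoter peak, against 30.4% of all genes, and no immunoproteasome gene was among them. H3K56ac in *Psmb10* thus lay in the body of the gene and not over its main start, in contrast to *Psmb5*, *Psmb6* and *Psmb7*.

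**Figure D2:**
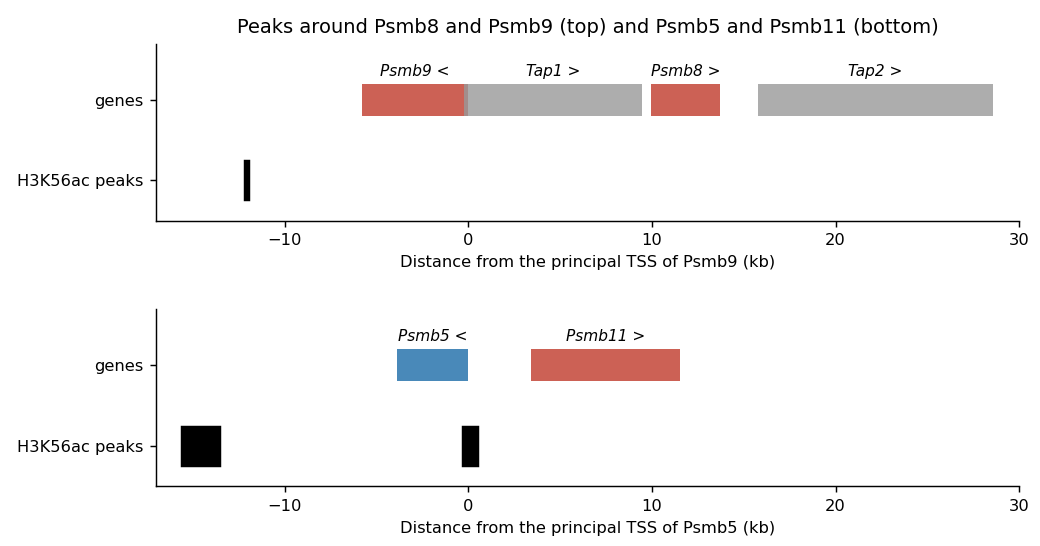
H3K56ac peaks (black) and protein-coding genes (coloured; > and < give the strand) around *Psmb8* and *Psmb9* and around *Psmb5* and *Psmb11*, with the distance from the principal TSS of *Psmb9* or *Psmb5* in kb on the x axis. Genes of other families are left out. The upper panel holds a single peak, of 288 bp, beyond the 3′ end of *Psmb9*, and the lower panel shows the 869-bp peak over the start of *Psmb5*, one of 2082 bp beyond its 3′ end and none at *Psmb11*.

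*Psmb11*, the beta 5 variant of the thymic cortex, lies next to *Psmb5* on chromosome 14. The nearest peak to it was that of *Psmb5*, with a midpoint 3301 bp from the nearest *Psmb11* TSS and 7178 bp from the principal one. *Psma8*, the alpha 4 variant of the testis, did have a promoter peak, 764 bp wide and centred 248.5 bp downstream of its principal TSS. Its constitutive counterpart *Psma7* had one of 931 bp, farther inside the gene. The tissue-specific pair thus differed from each other in this set.

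Neither the difference between constitutive and special subunits nor its cause was tested. CpG content moved with it: the CpG ratio was at least 0.6 at each of the 31 constitutive subunits, from 0.617 at *Psmd4* to 0.965 at *Psma7*, and at 1 of the 5 special ones. That one was *Psmb9* with 0.658, and the ratios of the others were 0.58 at *Psmb8*, 0.564 at *Psma8*, 0.393 at *Psmb11* and 0.265 at *Psmb10*. Within the special subunits the peaks did not go with CpG content: *Psma8* and *Psmb10* had a promoter peak and *Psmb9* had none. *Psmb9* and *Psmc2* were the CpG-rich proteasome genes without a promoter peak. Uniqueness of sequence can limit where reads are placed. Each of the 1927 stretches of 75 bases within 1 kb of the principal TSS was unique in the genome at *Psmb8*, *Psmb11*, *Psmc2* and *Psmd10*, and 1905 were unique at *Psmb9*.

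**Figure D3:**
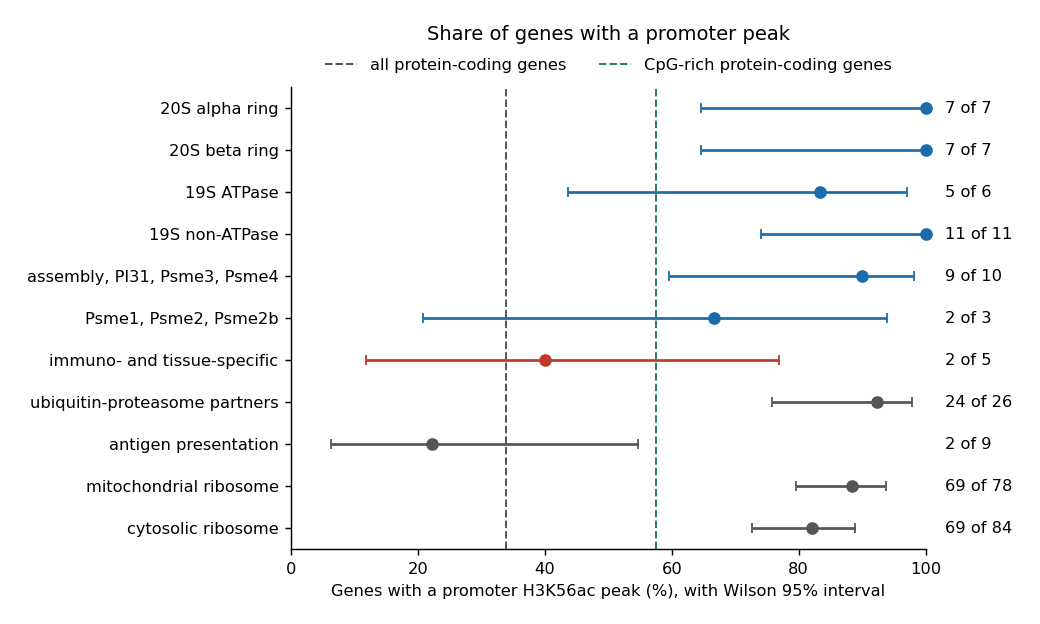
Share of genes with a promoter H3K56ac peak (points, in %) with Wilson 95% intervals (bars), counts at the right, and dashed lines for all protein-coding genes (33.9%) and CpG-rich ones (57.5%). Core and regulatory particle genes lie above both lines, though the interval of the 19S ATPases spans the second, while immunoproteasome and tissue-specific subunits (40%) and antigen presentation genes (22.2%) have intervals that span the share of all genes.

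Activators open the gate of the core particle without the regulatory particle. *Psme1* and *Psme2*, the interferon-inducible PA28 alpha and beta subunits, both had a promoter peak by the rule, at CpG ratios of 0.403 and 0.43. The peak of *Psme1* was the narrowest of the proteasome genes, 228 bp in the intron at chr14:55578718-55578945, and 0.466% of promoter peaks were narrower. The peak of *Psme2* was 2591 bp wide, with its midpoint 404 bp upstream of the principal TSS, towards *Rnf31*, a ubiquitin ligase gene on the opposite strand that begins 621 bp from there. That midpoint was 217 bp from *Rnf31* and 378 bp from the nearest *Psme2* TSS, and the peak held the start of *Rnf31*, so it cannot be assigned to *Psme2* alone. The peaks counted for the related pair thus lay towards opposite ends of the range of widths. *Psme2b*, which is named as a copy of *Psme2*, had its nearest midpoint 90342 bp away, and 1458 of its 1927 stretches were unique, the lowest number of the 50 genes.

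The nuclear activators *Psme3* (PA28 gamma) and *Psme4* (PA200) had peaks of 1598 and 2239 bp, and *Psmf1*, which encodes the inhibitor PI31, had one of 1197 bp. All 4 chaperones of core particle assembly, *Psmg1* to *Psmg4*, had a promoter peak, of 1907, 1979, 1272 and 423 bp. The peaks of *Psmg2* and *Psmg3* were centred nearer to another gene, 60 bp from *Cep76* and 178.5 bp from *Gm26938*. Of the chaperones of the regulatory particle base, *Psmd5* had a peak of 2700 bp and *Psmd9* one of 548 bp. *Psmd10*, which encodes gankyrin and is the X-linked gene of the group, had its nearest midpoint 499812.5 bp from its TSS, in an intron of *Prps1*. *Psmc3ip*, which is no subunit, had a peak of 1651 bp. Accessory genes outside *Psme1*, *Psme2* and *Psme2b* thus had a promoter peak at 9 of 10 genes, with *Psmd10* as the exception. The share over all protein-coding genes was 33.9%.

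The promoter peaks of proteasome genes were of middling width. Their median was 1430.5 bp (quartiles 949 and 1912 bp), against 1154.5 bp (697 and 1997.25 bp) for the 6868 promoter peaks of all genes. With all promoter peaks split at their quartiles, 5, 10, 21 and 8 of the 44 fell in the bins from narrow to wide, so the bin above the median held the most. A width of at least 3 kb was reached by 1 of 44, the peak of *Psmb1*, and by 7.15% of promoter peaks. Core particle and regulatory particle genes had medians of 1537 and 1325.5 bp.

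**Figure D4:**
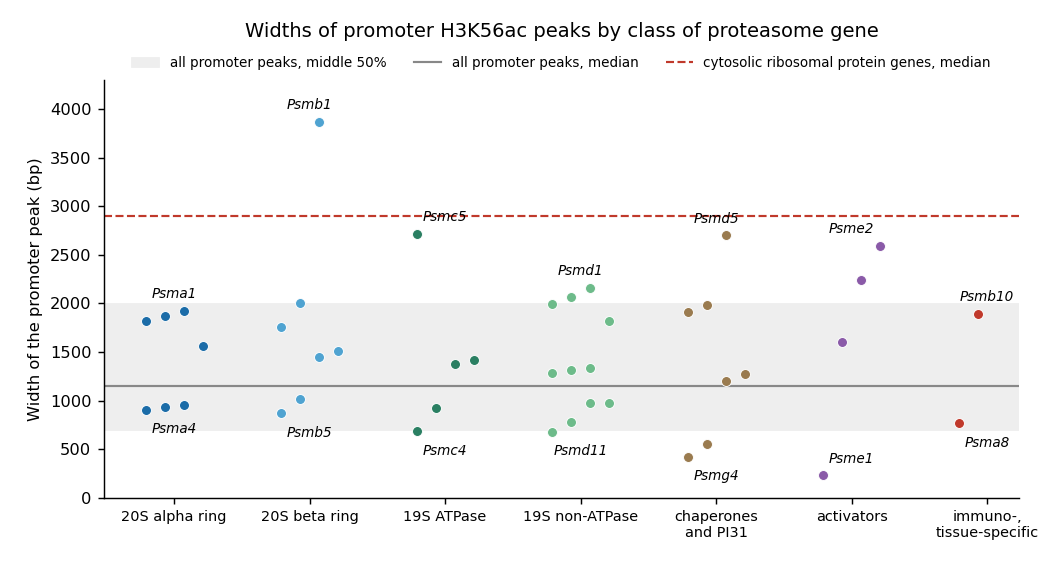
Width of the promoter peak (y axis, bp) of 43 proteasome genes by class, with each point 1 gene and the widest and narrowest of each class named; *Psmc3ip* is left out. The grey band and line give the middle 50% and the median (1154.5 bp) of the 6868 promoter peaks, and the dashed line the median of cytosolic ribosomal protein genes (2896 bp), which 1 proteasome gene, *Psmb1*, exceeds.

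Ribosomal protein genes, another large set of subunits used by every cell, were placed beside them. Promoter peaks were present at 69 of 84 genes of the cytosolic ribosome (82.1%, 72.6 to 88.9%) and at 69 of 78 genes of the mitochondrial ribosome (88.5%, 79.5 to 93.8%). The cytosolic set had peaks with a median of 2896 bp, and 47.8% of them reached 3 kb. The mitochondrial set had a median of 1276 bp, and 2.94% of its peaks reached 3 kb. The intervals of both shares overlapped that of the proteasome genes, and the median width of the proteasome genes was nearer to that of the mitochondrial set.

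The peaks of proteasome genes lay mostly downstream of the start. The midpoint was 199.75 bp from the nearest TSS in the median, against 277.5 bp for all genes with a promoter peak. The value for the proteasome genes depended on the TSS set: it was 334.75 bp from the 5′ end of the gene and 314.75 bp from the principal TSS alone, and with a limit of 500 bp it was 127 bp. These alternative distances are not given here for all genes. Relative to the principal TSS, the midpoint was downstream in 38 of the 44 genes, against 67.1% of all genes with a promoter peak. The median offset was 307 bp downstream, against 250 bp for all such genes. In the ribosomal sets it was downstream in 64 of 69 genes of the cytosolic ribosome, with a median offset of 631.5 bp, and in 51 of 69 of the mitochondrial one, with 305 bp, so the trait was not particular to proteasome genes. The direction also depended on the TSS. At *Psma1*, *Psmb6*, *Psmd11* and *Psme4* the midpoint was downstream of the principal TSS but 12, 323.5, 514 and 58 bp upstream of the nearest one. In the 44 proteasome genes the midpoint lay in an exon of the gene in 21 cases and in an intron in 18. It lay in a neighbouring gene alone in 2 and between genes in 3. This split is not given here for all genes. The principal TSS was inside the peak in 34 of the 44 genes, against 56.9% of all genes with a promoter peak, 59 of 69 cytosolic and 51 of 69 mitochondrial ribosomal genes.

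**Figure D5:**
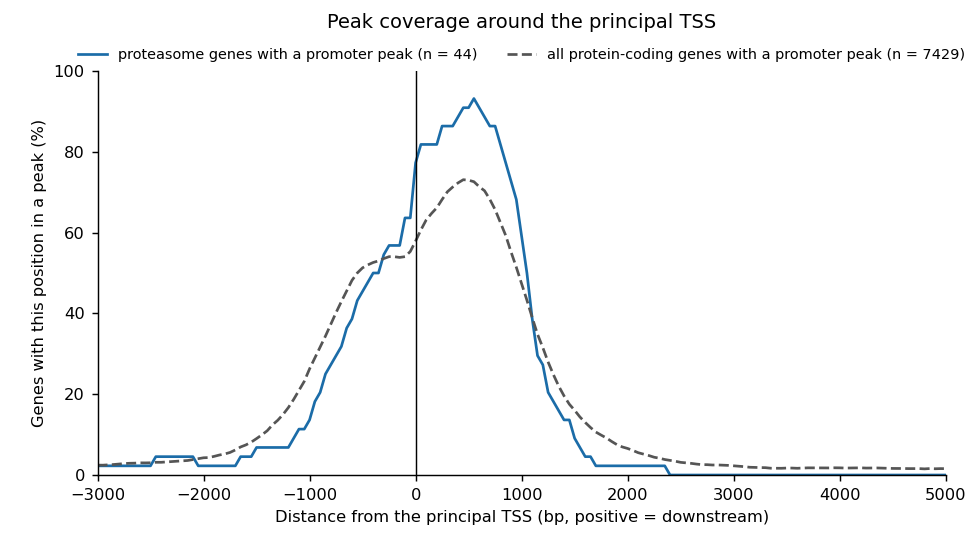
Percentage of genes whose position lies inside an H3K56ac peak (y axis), by distance from the principal TSS (x axis, bp, positive downstream), for the 44 proteasome genes (line) and all 7429 genes (dashes) with a promoter peak. Coverage of proteasome genes is highest 550 bp downstream (93.2%) and is lower than that of all genes 1 kb upstream (13.6% against 26.3%).

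At the TSS itself, 77.3% of proteasome genes with a promoter peak were covered, against 57.9% of all such genes. Coverage was highest 550 bp downstream, at 93.2%, against a highest value of 73.1% at 450 bp for all genes. At 1 kb upstream it was 13.6% against 26.3%, and at 1 kb downstream 59.1% against 47.3%. Both sets were chosen for a peak near a start, so coverage near the TSS is in part given by that choice. The rule set no direction, but it accepted a peak at any TSS while the offset was taken from the principal TSS. A peak accepted at a start inside the gene therefore counts as downstream. At *Psmb10* the midpoint was 32.5 bp from such a start and 1451.5 bp downstream of the principal TSS.

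In 7 of the 44 genes with a promoter peak, a coding gene on the opposite strand began within 1 kb of the principal TSS: *Psma2* (*Mrpl32*), *Psma4* (*AY074887*), *Psma7* (*Ss18l1*), *Psmc5* (*Ftsj3*), *Psmd13* (*Sirt3*), *Psme2* (*Rnf31*) and *Psmg2* (*Cep76*). In these the midpoint was downstream in 3 of 7, and in the genes without such a neighbour in 35 of 37. The same shares over all genes with a promoter peak were 48.5% and 72.5%. Of those 7429 genes, 1676 had such a neighbour. Among the proteasome genes, the midpoint was upstream of the principal TSS in 6, *Psma2*, *Psmb1*, *Psmb5*, *Psmc5*, *Psme2* and *Psmg2*, of which *Psmb1* and *Psmb5* had no such neighbour. The *Psmb1* peak held the start of *Tbp*, but that lay near another *Psmb1* TSS and beyond 1 kb from the principal one. Genes with a neighbour had a median peak width of 1979 bp against 1372 bp without one, and over all genes these medians were 1842 and 1108 bp. The peak also held the start of the neighbour in 5 of the 7, the exceptions being *Psma4* and *Psma7*, and such a peak cannot be assigned to 1 of the 2 genes from its position. This count is not given here for all genes.

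The peak missed the principal TSS in 10 genes, *Psma3*, *Psma4*, *Psma7*, *Psmb10*, *Psmc4*, *Psmd7*, *Psmd8*, *Psmd9*, *Psmd11* and *Psme1*, and in each it lay downstream. *Psmc4* (Rpt3) and *Psmd9* missed it by 7 and 5 bp. *Psma7*, *Psmb10* and *Psmd11* (Rpn6) missed it by 561, 504 and 409 bp. Such peaks thus ranged from ones that began at the start to ones well inside the gene.

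A further peak touched 2 of the 44 genes with a promoter peak, or 4.55% (1.26 to 15.1%), against 15.8% of all such genes, whose median length was 22.8 kb against 12.5 kb. Beside the promoter peak, *Psma2* had a peak of 829 bp in an intron, 17318 bp downstream of its principal TSS, and *Psma6* had one of 555 bp, 12956 bp upstream, in an intron of a longer transcript. A distal peak, over 3 kb from every TSS, lay within 50 kb of the principal TSS of 14 of the 44 genes with a promoter peak, or 31.8% (20 to 46.6%), against 25.6% of all genes with a promoter peak.

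Partners of the proteasome were taken from a list by function. A promoter peak was present at 24 of 26 genes for ubiquitin activation, shuttling, unfolding and control of proteasome genes, or 92.3% (75.9 to 97.9%). They included *Nfe2l1*, which encodes the factor NRF1 that induces proteasome genes when the proteasome is inhibited, with a peak of 2580 bp, and *Ddi2*, which encodes the protease that activates NRF1, with one of 2248 bp. *Pomp*, which encodes the core particle maturation chaperone, had a peak of 1982 bp, and the polyubiquitin gene *Ubb* had one of 2926 bp. *Rad23b*, which encodes a shuttle for ubiquitinated proteins, had a peak of 2438 bp. *Ngly1* and *Ecpas* had none, with nearest midpoints 6244 and 91043 bp from a TSS. The share was 33.9% over all protein-coding genes and 57.5% over CpG-rich ones. With a limit of 500 bp, 13 of the 26 partners (50%) had a promoter peak, against 25.8% and 43.3%. The principal TSS was inside the peak in 11 of the 24, against 56.9% of all genes with a promoter peak.

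Antigen presentation genes, with which the inducible subunits work, had a promoter peak at 2 of 9, or 22.2% (6.32 to 54.7%). *B2m*, the light chain of class I molecules, had a peak of 1467 bp, and *Tapbp*, which helps to load peptides, had one of 2231 bp. *Tap1*, *Tap2*, *H2-K1*, *H2-D1*, *Irf1*, *Nlrc5* and *Erap1* had none. The nearest midpoint was 6823 bp from a TSS at *Irf1* and 48383 bp at *Nlrc5*, which encode factors that induce these genes. The interval of this share spanned the 33.9% of all protein-coding genes.

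Promoter sequence was compared over 250 bases before and 50 after the principal TSS, on both strands, and a base could count for more than 1 motif. CCGGAAG, a site of ETS factors, was found in 18 of 50 proteasome promoters, or 36% (24.1 to 49.9%), in 19% of CpG-rich promoters and in 11.2% of all promoters. Shown here are 40 bases around the site in 3 constitutive subunits, as examples of its setting, with the site in capitals, from RefSeq's GRCm38.p6. They lie at chr12:55398677-55398716 (plus strand), chr14:45329708-45329747 (plus strand) and chr3:95042716-95042755 (minus strand), and the sites begin 82, 64 and 125 bp before the principal TSS.
Psma6: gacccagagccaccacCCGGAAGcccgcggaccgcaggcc
Psmc6: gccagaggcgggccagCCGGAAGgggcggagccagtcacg
Psmd4: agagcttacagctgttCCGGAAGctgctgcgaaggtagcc
The *Psma6* and *Psmc6* stretches lay inside the promoter peak and that of *Psmd4* upstream of it. A match to these letters does not show that a factor binds there.

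The other motifs were each found in at most 18 proteasome promoters. CCAAT was found in 18 of 50 proteasome promoters, or 36%, in 37.3% of CpG-rich and in 38.6% of all promoters. The antioxidant core TGACNNNGC, printed above for *Psmb5* and *Psmb6*, was found in 7 of 50, or 14%, against 14.6% and 12.8%, and the others with it were *Psmb2*, *Psmc6*, *Psmd7*, *Psmd9* and *Psmd12*. The interferon-stimulated core GAAANNGAA was found in 7 of 50, or 14%, against 6.26% and 8.46%, and in none of the 5 immunoproteasome and tissue-specific promoters. TTCNNNGAA, the core of the GAS element, was found in 5 of 50 (10%, against 5.71% and 8.22%), with *Psmb8* among them. TATAAA was found in 5 of 50 (10%, against 6.1% and 12.6%). No match says only that these letters were not in this window.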

How the data were processed

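Groups came from the sample titles. The authors trimmed the reads, kept those that Bowtie 1.1.2 placed uniquely on mm10, removed duplicates, called peaks with MACS2, dropped blacklisted regions and merged overlapping peaks over the libraries. The deposited file holds positions alone: its name, score and strand columns were constant, and no read depth is given. No 2 peaks were closer than 1000 bp, so nearby enrichments may have been joined, which affects widths. Other values of the study are not analysed here.

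Positions were written counted from 1 and set against the starts of all transcripts of GENCODE M21 protein-coding genes, on the same assembly (GRCm38.p6, RefSeq genome). The first bases of the principal transcript (APPRIS) matched the genome in 50 of 50 genes, and 0 peaks ran past a chromosome end. RefSeq's promoter table held 42 of the 50 genes, of which 35 had a midpoint within 1 kb of a RefSeq start. The same share is not given here for all genes. Uniqueness was counted over stretches of 75 bases.

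Every proteasome gene was to be named, with gene lists for the pathway, antigen presentation and ribosomes beside them. Some genes of these lists are not reported here and were left out of their counts. The genes, lists and motifs were chosen with earlier results of these data known, and the pluripotency genes after them. Calculations used Python 3.11.15, numpy 2.4.6, scipy 1.17.1 and numba 0.67.0, with plots in matplotlib 3.10.9. The promoter rule was tested on simulated data and recovered 2000 of 2000 planted genes. Alternatives varied the distance, the part of the peak, the TSS set, peak width and the grouping.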

Additional observations from a re-analysis of the deposited data

How the results depend on the processing

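The count of proteasome genes with a promoter peak was 44 of 50 and ranged from 35 to 45 over the alternatives, that of constitutive subunits was 30 of 31 and ranged from 22 to 31, and with the accessory genes it was 39 of 41. Under the main rule, the share over all protein-coding genes was 33.9%. The lowest counts came with a midpoint limit of 500 bp, and that of all proteasome genes equally with peaks of at least the median width of all peaks. Proteasome genes had a share of 70% at both settings. All protein-coding genes had 25.8% at 500 bp and 21.9% with the wider peaks, and CpG-rich ones 43.3% and 38.8%. With peaks centred nearer to another gene left out, 39 of the 50 had a promoter peak, against 29.7% of all genes. The genes lost were *Psma2*, *Psmc5*, *Psme2*, *Psmg2* and *Psmg3*, and constitutive subunits then stood at 28 of 31. The immunoproteasome and tissue-specific count of 2 of 5 fell to 1 with the 5′ end of the gene alone, with basic transcripts alone, with peaks of at least the median width of all peaks (913.5 bp), and with the principal TSS alone, an alternative chosen after seeing the data. In that order, the shares over all protein-coding genes were 29.8%, 32.2%, 21.9% and 30.4%. The count became 4 of 8 where *Psme1*, *Psme2* and *Psme2b* were counted with these subunits, against 33.9% of all protein-coding genes. The median width ranged from 1372 to 1651 bp, and the median distance from the TSS from 127 to 334.75 bp. Of 47 alternative values, 42 stayed within the stated margin of the main value (1.5 times for counts, the spread among genes for medians). The alternatives recount the same peaks and the margin is wide, so this number says little about robustness. No paired analysis was possible because peaks carry no library or replicate name, and leaving out a library was for the same reason not run.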

Other observations

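Peak positions say where H3K56ac passed the threshold of the peak caller in the merged set, not how much of it was there. A gene without a peak is one where the caller reported none, which includes levels below that threshold. The file gives no depth, and the read numbers of the libraries were not used here. The positions do not tell a peak found in 1 library, or in Sirt6KD cells alone, from one found in all. The study listed more peaks for each Sirt6KD library than for each Scramble library, under its own enrichment cut-off. How far the merged set stems from Sirt6KD cells could not be examined. Expression was not measured in these files. Genes that share a peak are not independent, and 5 of the 44 promoter peaks also held the start of an opposite-strand gene less than 1 kb from the principal TSS. The *Psmb1* peak held that of *Tbp*, which lies farther from the principal TSS. Principal TSS come from the annotation and were not measured in these cells.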
